A study of Homo sapiens with 4 samples.

Results

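Unnamed transcript clusters of the human myeloma cell line H929 were examined before and after treatment with meayamicin B. The array reports 1 value per row, and a row whose identifier starts with TC is a transcript cluster, a group of probes placed over 1 transcribed region of the genome. Of 135750 rows that were not controls, 98101 were transcript clusters with no gene symbol in the platform's annotation. A row counted as above background in an array where its value exceeded the 95th percentile of the 612 negative control rows of that array. The 14757 unnamed clusters (15.04%) described below were chosen by their log2 values in the 4 arrays, as those above background in both arrays of at least 1 group. Among the 36176 rows with exactly 1 gene symbol, 15044 (41.6%) met the same condition.

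The study compared H929 cells cultured without drug with H929 cells given 3 nM meayamicin B for 8 h, in 2 arrays per group. H929 is an established line grown from 1 patient's multiple myeloma, a cancer of plasma cells, so all 4 arrays share its genome and its rearrangements, and the labels name no other allele or agent. Total RNA was hybridised, and the values are the authors' RMA values on the log2 scale. The labels do not say that the 2 arrays of a group came from separate cultures, and the p-values below then reflect only how far these arrays differ from each other, perhaps for technical reasons.

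Meayamicin B is a synthetic relative of the natural product FR901464 and binds SF3B1, the subunit of the U2 small nuclear ribonucleoprotein that helps to recognise the branch point of introns. Splicing modulators of this kind change which introns are removed, and rows without a gene name are one place on an array where RNA outside annotated exons is measured. Such rows can lie in introns, on the antisense strand, at enhancers, in pseudogenes, or downstream of a gene's 3′ end, where RNA polymerase II is still bound to the template before it is released.

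The arrays held plasma cell RNA. All 10 plasma cell and myeloma markers, among them SDC1, TNFRSF17 and IRF4, were above background, with a median log2 value of 11.02. NSD2 and FGFR3, markers of lines with the translocation t(4;14), were also above background. Their median was 6.57, below that of the fibroblast markers at 6.94, so their level does not set them apart from markers of other cell types. Above background were 1 of 4 T cell markers, 1 of 2 measured mature B cell markers, 2 of 4 monocyte markers, 2 of 3 erythroid markers, 2 of 4 epithelial markers and 2 of 3 fibroblast markers, with medians from 2.73 to 6.94. On the log2 scale the background stood at 4.495 and 4.76 without drug and at 5.03 and 5.13 with it. Over the negative controls the log2 fold change had a median of 0.06; of these, 50 of 612 (8.17%) were higher by more than 1 in the treated arrays. Their part in the results below was not tested.

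The identifier of a cluster holds its chromosome and a running number, and the number follows genome position. Rows with 1 gene symbol were matched to RefSeq positions (assembly GRCh38.p14). In the first section of the chromosomes' numbering, 98.9% of successive matched rows were in ascending order and 98.9% of those with a known strand lay on the plus strand. In the second section 98.8% were in ascending order and 98.0% lay on the minus strand. The nearest row with 1 gene symbol on either side was therefore used to say where an unnamed cluster starts, and "upstream" and "downstream" below follow the direction of transcription of that strand. No cluster takes a gene's name from this, and a cluster numbered just after a gene on the plus strand may start inside that gene. The clusters' own coordinates and probe sequences were not used here.

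The named rows that bound a cluster do have annotated starts. The 250 bases before the outermost RefSeq start are shown for 4 of them (GRCh38.p14, 5′ to 3′ on the gene's strand), chosen after their values were seen. UAP1 is the bright gene upstream of a run of unnamed clusters that were higher after treatment. The rows of DDR2, NPR3 and ERMN are among the named rows next to such clusters that rose as well. They are not all of them: the pseudogene NDUFS6P1, described below, also rose and is not shown. Capitals mark CG pairs, which are dense at the starts of many broadly transcribed genes. The UAP1 window is chr1:162561281-162561530 on the plus strand, the DDR2 window chr1:162630613-162630862 on the plus strand, the NPR3 window chr5:32690622-32690871 on the plus strand, and the ERMN window chr2:157327713-157327962 on the minus strand.
UAP1: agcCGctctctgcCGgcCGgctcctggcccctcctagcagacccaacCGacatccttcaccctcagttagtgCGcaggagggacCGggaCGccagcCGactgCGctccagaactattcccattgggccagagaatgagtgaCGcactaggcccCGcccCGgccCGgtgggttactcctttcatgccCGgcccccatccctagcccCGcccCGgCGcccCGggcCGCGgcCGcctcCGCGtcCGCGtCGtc
DDR2: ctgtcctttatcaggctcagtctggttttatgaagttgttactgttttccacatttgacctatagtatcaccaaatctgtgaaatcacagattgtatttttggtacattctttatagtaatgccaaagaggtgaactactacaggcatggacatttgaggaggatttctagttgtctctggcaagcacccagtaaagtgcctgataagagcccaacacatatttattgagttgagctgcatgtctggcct
NPR3: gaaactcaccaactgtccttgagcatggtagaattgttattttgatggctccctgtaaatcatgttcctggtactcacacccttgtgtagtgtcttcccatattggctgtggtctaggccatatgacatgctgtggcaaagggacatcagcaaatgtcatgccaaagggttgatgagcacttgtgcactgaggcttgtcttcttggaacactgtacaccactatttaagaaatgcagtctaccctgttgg
ERMN: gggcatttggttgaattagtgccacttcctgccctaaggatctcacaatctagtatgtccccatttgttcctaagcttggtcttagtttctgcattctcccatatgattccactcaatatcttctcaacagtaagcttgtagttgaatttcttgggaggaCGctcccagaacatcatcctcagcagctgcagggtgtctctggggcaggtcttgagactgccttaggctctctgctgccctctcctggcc
The UAP1 window held 26 CG pairs, those of DDR2 and NPR3 held 0, and that of ERMN held 1. Over the outermost windows of 27305 genes the median was 10 CG pairs, and 93.6% held at least 1. A CG count describes these letters only and shows nothing about which start was used in these cells.

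Most unnamed clusters differed little between the groups, and those that moved went in both directions. The median log2 fold change over the 11083 clusters above background in all 4 arrays was 0.071, beside 0.023 over all rows tested and -0.062 over the 12963 rows with 1 gene symbol above background in all 4 arrays. Centring the arrays on the negative controls turned the sign of that median, to -0.024. Their median untreated value was 6.28 on the log2 scale, and the named rows' was 7.40. Treated-minus-untreated differences of replicate 1 and of replicate 2 correlated across these clusters with a Pearson r of 0.41 (n = 11083), and across the named rows with an r of 0.71 (n = 12963). These are correlations across rows, which are not independent replicates. In RNA from a whole culture, fewer cells that make an RNA and less of it per cell cannot be told apart.

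A further 3360 clusters were above background in the untreated arrays only and 314 in the treated arrays only. Clusters of these classes were chosen in part through the difference between the groups, so their counts are description and support no direction. The sizes of the classes also followed the background, which was higher in the treated arrays: with the mean background of the untreated arrays applied to all 4 arrays, an alternative chosen after seeing the data, 1536 clusters were above it in the treated arrays only and 1259 in the untreated arrays only.

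Calls were made with limma across all 135750 rows, with Benjamini-Hochberg adjustment and a threshold of 0.05. With limma's default prior 10 of the 14757 clusters were called, 8 higher and 2 lower, where 0.0162% of all rows were called, 0.0118% higher and 0.00442% lower. At an unadjusted p under 0.05 the default prior gave 1207 of the clusters above background in all 4 arrays (10.9%), against 9.42% of all rows. With a prior variance that follows the signal level (trended and robust), 314 clusters were called, 117 higher and 197 lower, against 1.17% of all rows and 7.37% of the named rows above background in all 4 arrays. Of the 11083 clusters above background in all 4 arrays, 207 (1.87%) were called with the trended prior, 83 higher and 124 lower. Among all rows 0.248% were called higher and 0.922% lower, and among those named rows 0.748% were called higher and 6.63% lower. Called clusters were thus higher in 40.1% of cases, and called named rows in 10.1%. The difference between these shares was not tested, and the clusters' share was 56.5% after a second quantile normalization, 45.9% after centring on ribosomal protein genes and 26.3% after centring on negative controls. Leaving out any 1 array leaves only 1 array in that group. Fewer calls in such a fit can follow from the number of arrays alone, so they do not show that the calls rest on each array's values. The trended-prior count of 314 became 172 without untreated replicate 1, 120 without untreated replicate 2, 235 without treated replicate 1 and 166 without treated replicate 2.

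**Figure D1:**
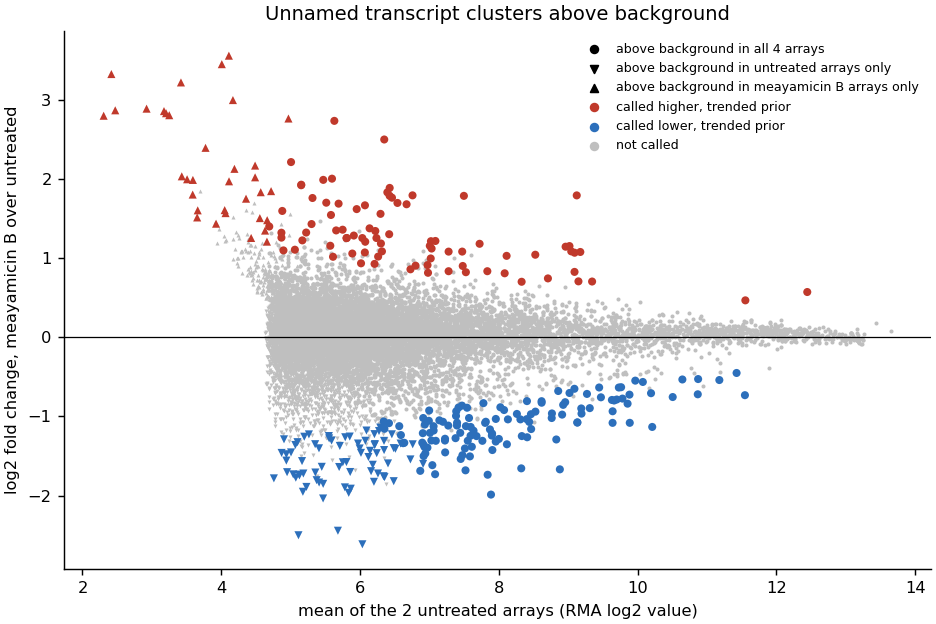
Each point is 1 of the 14757 unnamed clusters, with its mean untreated log2 value on the x axis and its log2 fold change (meayamicin B over untreated) on the y axis. Red and blue points are the 117 clusters called higher and the 197 called lower with the trended prior, and the triangles, which are clusters above background in 1 group only, were chosen in part through this difference. The called clusters spread over the whole range of untreated levels, while the grey points close around 0 as the level rises.

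The clusters called with the default prior were below background in both arrays of 1 group and above it in both arrays of the other, some of them narrowly, with 1 exception that was above it in all 4. The highest, TC0500007076.hg.1, is numbered between SUB1 and NPR3 on chromosome 5. Its values were 4.22 and 4.00 without drug and 7.64 and 7.70 with it. It was not above background in the untreated arrays, so the treated level was at least 8.25-fold higher (limma, default prior, adjusted p = 0.0231). SUB1, which encodes a transcriptional coactivator and lies upstream at chr5:32585557-32604079, read 13.12 and 13.02 untreated and 13.05 and 12.95 treated, so its arrays overlapped in level. NPR3, a receptor that clears natriuretic peptides, lies downstream at chr5:32690872-32791720 and rose from 4.62 and 4.66 to 7.92 and 7.72, a log2 fold change of 3.18 (SE 0.19, trended adjusted p = 0.000714). The stretch between the annotated end of SUB1 and the annotated start of NPR3 spans 86793 bases, and the cluster's number is the only one between theirs. The treated arrays of the cluster and of NPR3 lay above both of their untreated arrays, by more than 3 on the log2 scale in each pair.

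The exception was TC0700009586.hg.1, numbered directly after CUL1 on chromosome 7 and above background in all 4 arrays. It read 5.39 and 5.87 untreated and 8.24 and 8.49 treated, a log2 fold change of 2.74 (SE 0.23, default adjusted p = 0.0444). The next number, TC0700009587.hg.1, read 6.13 and 6.57 untreated and 8.61 and 9.10 treated and was called with the trended prior (log2 fold change 2.50, adjusted p = 0.0015). The treated arrays of both clusters were above all of their untreated arrays by more than 2 on the log2 scale. CUL1 itself, the scaffold of a family of ubiquitin ligases, read 9.69 and 9.67 and then 9.19 and 9.22 and was not called (adjusted p = 0.0917). The clusters numbered 3, 5, 6 and 8 after CUL1 had log2 fold changes between -0.08 and 0.14.

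A similar pair followed DUSP5 on chromosome 10, the gene of a phosphatase that acts on the kinase ERK. TC1000008893.hg.1 read 4.84 and 5.18 untreated and 6.88 and 7.56 treated, a log2 fold change of 2.22 (trended adjusted p = 0.00408). TC1000008894.hg.1 was below background untreated, at 3.73 and 4.29, and read 7.40 and 7.53 treated, at least 7.14-fold higher (default adjusted p = 0.0397). Both clusters' groups were far apart, while TC1000008892.hg.1, numbered between DUSP5 and this pair, read 8.46 and 9.01 untreated and 8.36 and 8.30 treated and was not called (adjusted p = 0.502). DUSP5 differed by 0.06 and the next named row downstream, SMC3, which encodes a cohesin subunit, by -0.11 on the log2 scale, neither of them called.

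The remaining 5 risers called with the default prior were all below background in both untreated arrays. TC0200014689.hg.1, numbered between the pseudogene FAM133DP and ERMN on chromosome 2, read 3.34 and 3.50 untreated and 6.31 and 6.97 treated, at least 4.04-fold higher (adjusted p = 0.0397). It sits 4 numbers downstream of CYTIP, a cytohesin-binding protein of immune cells, on the minus strand, and TC0200014692.hg.1, directly after CYTIP, read 4.18 and 4.05 and then 5.60 and 6.57 (trended adjusted p = 0.0162). ERMN, the gene of an actin-binding protein of myelin-forming cells, read 3.29 and 3.91 untreated and 5.82 and 5.78 treated (trended adjusted p = 0.00532). In all 3 of these rows both treated arrays exceeded both untreated arrays, and CYTIP read 11.28 and 11.15 and then 10.97 and 10.70 (adjusted p = 0.178).

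TC0300012526.hg.1, numbered directly after MSL2 on the minus strand of chromosome 3, read 2.57 and 2.37 untreated and 5.18 and 5.51 treated, at least 1.64-fold higher (adjusted p = 0.0397). Its next named row downstream is a pseudogene, NDUFS6P1, which read 4.17 and 4.30 and then 6.73 and 6.65 (trended adjusted p = 0.0015). Pseudogenes resemble their parent genes, and how far the probes of such rows also bind the parent's RNA was not tested. TC1100007691.hg.1, 3 numbers after ZDHHC5 on chromosome 11, read 2.98 and 3.52 and then 6.19 and 5.93, at least 2.7-fold higher. TC0400008988.hg.1 on chromosome 4 read 2.78 and 3.06 and then 5.71 and 5.93, at least 2.28-fold higher, and TC0800011666.hg.1 on chromosome 8 read 2.02 and 2.59 and then 5.09 and 5.13, at least 1.4-fold higher. The chromosome 8 cluster is the weakest of these, because its treated values exceeded the treated background by less than 0.1 in both arrays.

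A further pair among the 8 highest was called with the trended prior and was below background in both untreated arrays. TC0300007609.hg.1 on chromosome 3 read 2.55 and 2.29 untreated and 5.19 and 6.30 treated, at least 2.17-fold higher (adjusted p = 0.0031). It is numbered 2 after RPP14, which encodes a subunit of ribonuclease P and read 7.67 and 7.73 and then 7.59 and 7.72, and directly before PXK, which fell from 10.27 and 10.25 to 9.52 and 9.26 (adjusted p = 0.00891). TC0X00010938.hg.1 on chromosome X read 2.66 and 3.68 and then 5.85 and 6.22, at least 2.66-fold higher (adjusted p = 0.00434). Its upstream named row, the pseudogene SRRM1P3, was dim, at 4.04 and 3.78 untreated and 4.42 and 4.19 treated.

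**Figure D2:**
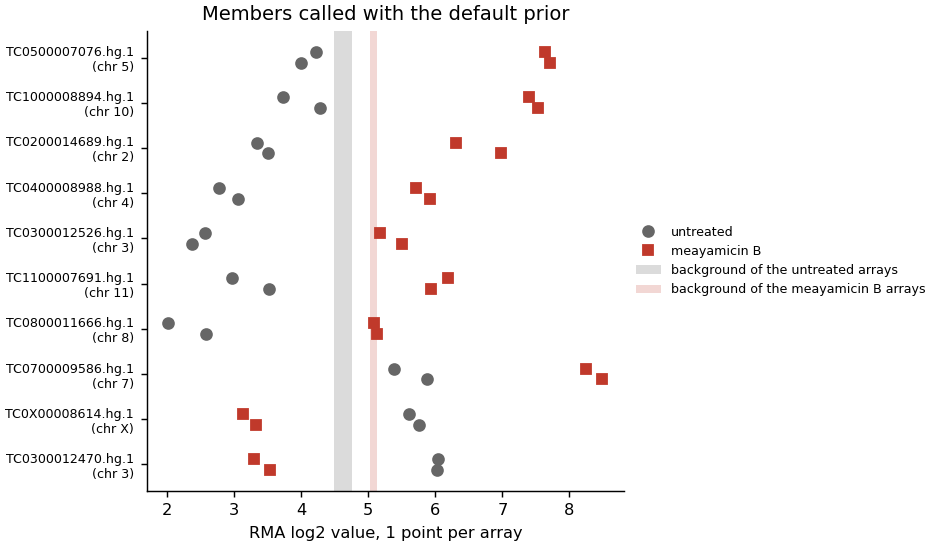
Each row is 1 of the 10 clusters called with the default prior, with 1 point per array on the RMA log2 scale; grey circles are untreated arrays, red squares meayamicin B arrays, and the shaded bands span the backgrounds of each group's arrays. In all 10 the groups do not overlap, and TC0700009586.hg.1 is the only one whose 4 points lie to the right of both bands.

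A run of clusters measured in all 4 arrays, each higher in both treated arrays, lay between UAP1 and DDR2 on chromosome 1. UAP1, an enzyme that makes UDP-N-acetylglucosamine, lies at chr1:162561531-162601240 and read 12.51 and 12.55 untreated and 12.42 and 12.25 treated. TC0100010382.hg.1, directly after it, read 10.07 and 10.22 and then 10.11 and 10.11, so its groups overlapped. TC0100010383.hg.1 read 5.25 and 6.13 untreated and 7.36 and 7.40 treated and was called (log2 fold change 1.69, trended adjusted p = 0.016). The next 3 numbers did not pass the threshold. TC0100010384.hg.1 read 7.17 and 7.52 and then 8.04 and 8.08 (adjusted p = 0.0925). TC0100010385.hg.1 read 6.87 and 7.29 and then 8.10 and 7.85, and TC0100010386.hg.1 6.05 and 6.47 and then 7.02 and 7.71. In each of these 4 clusters both treated arrays exceeded both untreated arrays. The run ends at DDR2, a collagen receptor, whose row at chr1:162630863-162787405 rose from 8.15 and 8.08 to 9.96 and 10.21 (log2 fold change 1.97, SE 0.20, trended adjusted p = 0.000797).

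Runs of this kind were also numbered after SEPTIN7 on chromosome 7, LMNB1 on chromosome 5 and RREB1 on chromosome 6. After SEPTIN7, a cytoskeletal GTPase, TC0700007183.hg.1 read 3.64 and 4.70 untreated, where 1 of the 2 arrays differed from the other by more than 1, and 7.07 and 7.27 treated (at least 5.82-fold higher, trended adjusted p = 0.00306). On either side TC0700007182.hg.1, below background untreated, was at least 2.92-fold higher and TC0700007184.hg.1 had a log2 fold change of 1.02, and neither was called. SEPT7P3, the next named row, is a pseudogene of SEPTIN7 and differed by -0.12.

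After LMNB1, which encodes a protein of the nuclear lamina, TC0500008547.hg.1 rose from 4.58 and 5.18 to 6.27 and 6.68 (log2 fold change 1.60, adjusted p = 0.0192). TC0500008548.hg.1 rose from 4.66 and 5.64 to 7.31 and 6.84 (log2 fold change 1.92, adjusted p = 0.0177). TC0500008546.hg.1 had a log2 fold change of 0.82 and was not called. All 3 clusters of this run were above background in all 4 arrays, and LMNB1 itself differed by 0.28 (adjusted p = 0.302). After RREB1, a zinc finger transcription factor, TC0600006858.hg.1 rose from 5.79 and 6.35 to 7.62 and 7.86 and TC0600006859.hg.1 from 6.25 and 6.03 to 7.34 and 7.69 (adjusted p = 0.00688 and 0.0106). TC0600006860.hg.1 read 5.17 and 4.58 and then 5.67 and 5.90 and was not called (adjusted p = 0.179).

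**Figure D3:**
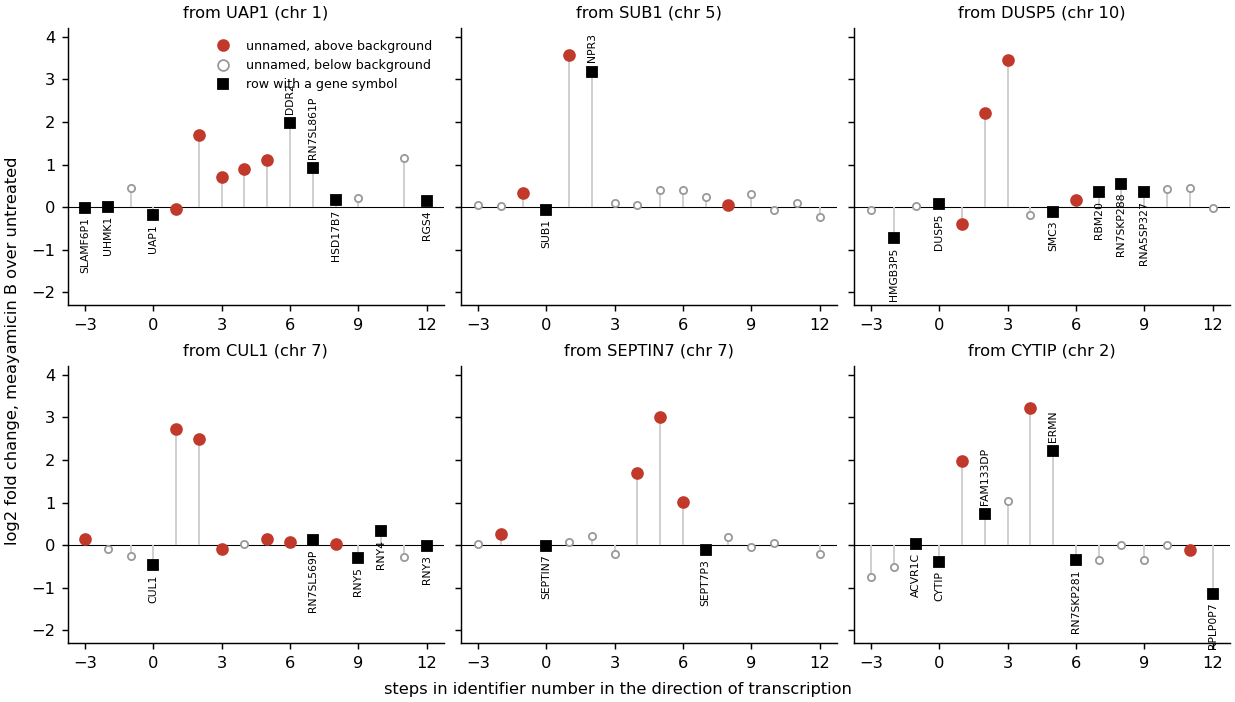
Log2 fold change (meayamicin B over untreated) of the rows around 6 named genes, by steps in identifier number in the direction of transcription, with the named gene at step 0. Filled red circles are unnamed clusters above background, open circles unnamed clusters below background and black squares rows with a gene symbol; the gene at step 0 lies between -0.48 and 0.06 in the 6 panels while 1 to 3 red circles within 6 steps after it lie above 1, and DDR2, NPR3 and ERMN stand beside them.

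Clusters called higher had brighter named rows upstream, by the median, than other clusters, a difference that was not tested. Each cluster was set beside the nearest row with 1 gene symbol at most 10 numbers away on its upstream side, a reading chosen after seeing the data. Clusters called higher with the trended prior had an upstream neighbour with a median untreated log2 value of 8.31 (n = 106), clusters called lower 5.04 (n = 167), and clusters not called 4.94 (n = 12536). On the downstream side the medians were 5.63, 5.02 and 4.81. These counts include clusters above background in 1 group only, which were chosen in part through the difference between the groups. Of the 106 called higher, 75 were above background in all 4 arrays, and of the 167 called lower, 100. The upstream neighbours of clusters called higher had a median log2 fold change of -0.0082 themselves. By the neighbour's untreated level, 43 of the 1396 clusters behind a row over 9 were called higher, and 34 of the 9159 behind one at 7 or less. By the neighbour's call, 8 of the 77 clusters behind a row called higher were called higher. Behind rows not called it was 95 of 12286, and behind rows called lower 3 of 446. Over all rows 0.248% were called higher, and these shares were not tested.

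The share called higher climbed with the upstream neighbour's untreated level. Among clusters above background in all 4 arrays it was 0.327% where that neighbour was under 5 on the log2 scale (n = 4896), 0.399% from 5 to 7, 20 of 1673 from 7 to 9, 2.65% from 9 to 11 and 4.76% over 11 (n = 168). Above 9 it was 31 of 1035 clusters (3.00%), behind 26 different upstream rows, and at 7 or less 24 of 6899 (0.348%). By the downstream neighbour's level the same shares were 14 of 932 (1.50%) above 9 and 0.649% at 7 or less, and over 11 it was 7 of 175 (4.00%). Calls in the lower direction were 0.966% above 9 and 1.01% at 7 or less on the upstream side. By the downstream neighbour's level they were 16 of 932 (1.72%) above 9 and 59 of 7093 (0.832%) at 7 or less. The clusters themselves were about as bright in each class, with a median level of 6.36 above 9 and 6.27 at 7 or less.

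The climb was present in each replicate pair without any call. Of the all-4-array clusters with an upstream neighbour over 9, 4.06% were higher by more than 1 on the log2 scale in replicate 1 and 4.15% in replicate 2. With an upstream neighbour at 7 or less the shares were 1.22% and 0.942%. Named rows above background in all 4 arrays, treated in the same way, were called higher in 1.14% of cases after an upstream row over 9 and in 0.692% after one at 7 or less. None of these shares was tested against another, because clusters behind the same gene are not independent. The count of 31 was 20 without untreated replicate 1 and 20 without treated replicate 2.

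On the upstream side the share was highest within 2 numbers of a bright gene. Of clusters above background in all 4 arrays whose upstream neighbour was over 9, 3.67% were called higher at 1 number from it, 4.72% at 2, 1.56% at 3, 1.28% at 4 to 5 and 1.46% at 6 to 10. With a bright downstream neighbour the share was 3.27% at 1 number, 1.04% at 2 and at most 0.741% beyond, so the share right before a bright gene was close to that right after one, a difference that was not tested. These shares rest on 14, 11, 2, 2 and 2 clusters upstream and on 10, 2, 1, 0 and 1 downstream.

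**Figure D4:**
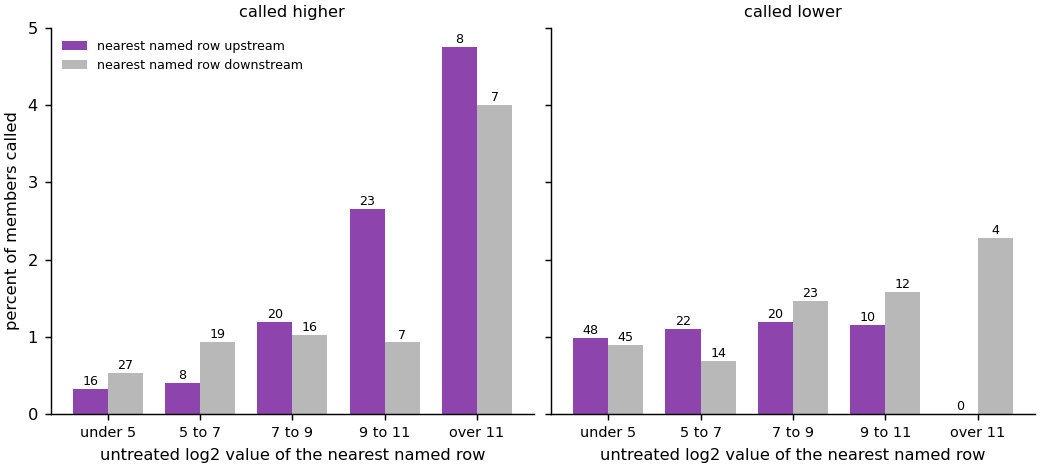
Bars give the percent of clusters above background in all 4 arrays that were called higher (left) or lower (right) with the trended prior, by the untreated log2 value of the nearest named row upstream (purple) or downstream (grey), with the number of called clusters above each bar. The purple bars on the left climb from 0.327% to 4.76%, while on the right they stay between 0.980% and 1.195% up to a neighbour's value of 11 and stand at 0 above it. The grey bars on the left stand between 0.533% and 1.02% up to a neighbour's value of 11 and at 4.00% above it. The grey bars on the right run from 0.689% to 2.29%, the highest standing over 11.

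Clusters called lower had upstream neighbours at about the level of those of clusters not called. TC0300012470.hg.1 on chromosome 3 had the lowest log2 fold change. It read 6.04 and 6.03 untreated and 3.29 and 3.54 treated, where it was below background, so it was at least 1.94-fold lower (default adjusted p = 0.0397). It is numbered between BFSP2-AS1 and TMEM108-AS1, both antisense RNAs. TC0X00008614.hg.1, numbered 2 after MAGEC1 on chromosome X, read 5.61 and 5.75 and then 3.14 and 3.33, at least 1.52-fold lower (default adjusted p = 0.0397). MAGEC1 encodes a cancer-testis antigen expressed in many myelomas, and its row differed by 0.10 on the log2 scale. Both clusters had tight replicates, and their groups were more than 2 apart on the log2 scale.

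The largest fall among clusters above background in all 4 arrays was that of TC1200008814.hg.1 on chromosome 12. It read 7.77 and 8.01 untreated and 6.06 and 5.74 treated, a log2 fold change of -1.99 (SE 0.21, trended adjusted p = 0.00243). The next named row downstream, IFT81, encodes a protein of intraflagellar transport and read 5.29 and 5.41 untreated and 4.18 and 3.41 treated. Its treated values were below background, so its log2 fold change of -1.56 (trended adjusted p = 0.0357) does not measure the size of the fall. TC0300008243.hg.1, numbered directly after the adhesion gene ALCAM, read 4.59 and 5.63 and then 2.68 and 2.54. Its untreated arrays differed by about 1, its treated level was below background, and the fall was at least 1.03-fold.

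The other 4 of the 8 lowest called clusters were also below background in both treated arrays. They were TC0600013884.hg.1, TC1100010036.hg.1, TC1600011110.hg.1 and TC2200007174.hg.1. Their trended adjusted p ran from 0.0062 to 0.0185, and the falls were between 1.07-fold and 1.73-fold at the least.

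Neighbouring clusters had similar log2 fold changes. Across 2825 pairs of clusters whose numbers differ by 1, the log2 fold changes correlated with a Pearson r of 0.39, and at a difference of 2 and 3 the r was 0.26 and 0.18. It was 0.01 at 30 and 0.02 at 50. When the difference of replicate 1 in 1 cluster was set against that of replicate 2 in its neighbour, which share no array, the r at a difference of 1 was 0.27. For named rows above background the r at a difference of 1 was 0.12. Adjacent clusters may hold probes for 1 RNA, so the pairs are not independent and no p is given.

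**Figure D5:**
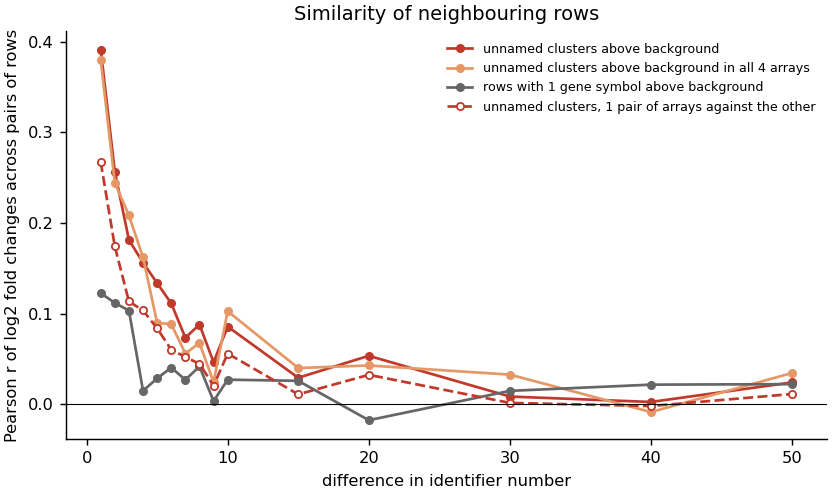
Pearson r between the log2 fold changes of 2 rows, by the difference of their identifier numbers on 1 chromosome; the dashed line sets replicate 1 of a cluster against replicate 2 of its neighbour. The curve for unnamed clusters falls from 0.39 at a difference of 1 to near 0 at 30, and that for named rows starts at 0.12.

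Stretches were defined as at least 3 clusters, each at most 3 numbers from the next, all differing by at least 0.5 on the log2 scale in 1 direction and in both replicate pairs. There were 47 of them, 16 higher with 52 clusters and 31 lower with 106. They include clusters above background in 1 group only, which were chosen in part through this difference. Of that kind, 3360 clusters were above background in the untreated arrays only and 314 in the treated arrays only. The counts of higher and lower stretches therefore support no direction. The upstream named rows of the higher stretches had a median untreated log2 value of 6.63, and those of the lower stretches 5.04. Higher stretches included the runs after UAP1, SEPTIN7, LMNB1 and RREB1, 1 after the spindle checkpoint gene BUB3, and 1 of 4 clusters between MIR4737 and TUBD1 on chromosome 17 in which all 4 were called. The log2 fold changes of those 4 clusters were 1.07 to 1.15, and the upstream row MIR4737 itself differed by 1.06, from 9.03 to 10.09. RREB1 differed by 0.64, and UAP1, SEPTIN7, LMNB1 and BUB3 by -0.19 to 0.28. 2 adjacent stretches of opposite direction lay between MTND2P11 and MUSK on chromosome 9, named rows with untreated log2 values of 2.68 and 2.09. The first, of 3 clusters above background in all 4 arrays, had a mean log2 fold change of -0.72, with 0 of its clusters called. All 3 clusters of the other were below background untreated. TC0900008403.hg.1 read 3.64 and 2.76 and then 6.28 and 5.80, at least 2.66-fold higher (adjusted p = 0.00399). TC0900008405.hg.1 and TC0900008406.hg.1 were at least 2.08-fold and 1.6-fold higher and were not called (adjusted p = 0.0728 and 0.0559).

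Lower stretches were most frequent on chromosomes 5 and 7, with 5 on each. The longest held 6 clusters on chromosome 7, upstream of KLF14, of which 5 were above background in all 4 arrays and 3 were called. A further pair of stretches lay between RASA4 and POLR2J on chromosome 7, a region of near-identical gene copies where probes can share targets. TC0700012093.hg.1 there read 6.09 and 6.39 untreated and 4.50 and 5.05 treated (at least 2.24-fold lower, trended adjusted p = 0.0245), and TC0700012094.hg.1 7.74 and 8.17 and then 6.30 and 6.97 (adjusted p = 0.0294). POLR2J encodes a subunit of RNA polymerase II, and its row differed by -0.42. TC0700012092.hg.1 read 6.15 and 6.83 and then 4.88 and 5.99 and was not called.

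The upstream named rows of the other 3 of the 4 lowest stretches had untreated log2 values of 3.29, 5.33 and 7.74. Downstream of the pseudogene COTL1P1 and upstream of MPRIP on chromosome 17, TC1700007037.hg.1 fell from 7.50 and 7.61 to 6.33 and 6.16 (log2 fold change -1.31, adjusted p = 0.00824), and TC1700007038.hg.1 fell with a log2 fold change of -1.24. TC1700007039.hg.1 read 5.09 and 5.31 untreated and was below background treated, at 3.99 and 3.89, a fall of at least 1.09-fold (adjusted p = 0.0402). After PPIE on chromosome 1, a cyclophilin found in spliceosomes, TC0100007925.hg.1 fell from 7.72 and 7.64 to 6.31 and 6.55 (log2 fold change -1.25, adjusted p = 0.0102). TC0100007926.hg.1 fell from 7.62 and 8.38 to 6.76 and 6.67 (adjusted p = 0.0292), and TC0100007927.hg.1 read 5.65 and 6.53 and then 4.51 and 4.97, below background, and was not called (at least 2.01-fold lower, adjusted p = 0.0811). Next to TC1600011110.hg.1 on chromosome 16, TC1600011111.hg.1 and TC1600011112.hg.1 differed by -1.04 and -0.98 and were not called.

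Chromosomes differed little in the typical change of their clusters. The median log2 fold change over a chromosome's clusters ran from -0.002 on chromosome 4 to 0.08 on chromosome 19, a range of 0.08 over the autosomes and X that was 0.10 in replicate 1 and 0.14 in replicate 2. These medians include clusters above background in 1 group only, which were chosen in part through this difference. Over the clusters above background in all 4 arrays, the medians of the autosomes and X ran from 0.033 on chromosome 15 to 0.112 on chromosome 19. Chromosome 19 also had the largest share of its unnamed clusters above background, 23.2% of 3466, and chromosome 13 the smallest, 8.81% of 2544. Called clusters were spread over the genome, at 2.13% of all 14757, against 0.248% of all rows called higher and 0.922% called lower. Chromosome 7 had 26 called lower and 7 higher among 848 (3.89% called), and chromosome 1 had 25 lower and 15 higher among 1369. Chromosome 8 had 12 lower and 1 higher among 609 (2.13%), chromosome 10 had 2 lower and 7 higher among 589 (1.53%), and chromosome 21 had 6 lower and 0 higher among 231 (2.60%). Among the clusters above background in all 4 arrays these counts were 20 lower and 5 higher on chromosome 7, 16 and 12 on chromosome 1, 6 and 0 on chromosome 8, 2 and 4 on chromosome 10, and 4 and 0 on chromosome 21. Chromosomes were not tested against each other.

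On the mitochondrial genome 11 of 12 unnamed clusters were above background, and 0 were called, with 1 at an unadjusted p under 0.05 (limma, default prior). The mitochondrial genome is transcribed from both strands as long RNAs that contain no introns. The 9 clusters above background between CYTB and ND6 had log2 fold changes from -0.13 to 0.53, and the 10 mitochondrial rows with gene symbols from -0.12 to 0.16. The 129 clusters on unplaced or unlocalised sequences included 2 called higher and 3 called lower.

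The kind of gene next door gave small groups. Over all 14757 clusters 2.13% were called, and over all rows 0.248% were called higher and 0.922% lower. The groups were not tested against these shares, and their counts include clusters above background in 1 group only. The nearest named row was an immunoglobulin segment for 38 clusters and an olfactory receptor for 108, with 0 called in either group (5 and 15 at an unadjusted p under 0.05). Beside histone genes 42 clusters included 2 called lower, and beside ribosomal protein genes and their pseudogenes 400 included 1 higher and 2 lower. Beside small nucleolar RNAs, the guides of RNA modification, 199 clusters included 5 called higher and 1 lower (3.02% called). Of these, 2 higher and 1 lower were above background in all 4 arrays. Beside spliceosomal snRNA genes and their many pseudogenes 732 included 3 higher and 14 lower (2.32%), of which 3 and 11 were in that class. Beside microRNA genes 695 included 6 higher and 7 lower (1.87%), of which 5 and 2 were in that class. Of the 11214 clusters beside other genes 94 were called higher and 153 lower. The log2 fold changes of a cluster and of its nearest named row correlated with a Pearson r of 0.10 across clusters, and 0.07 across those above background in all 4 arrays.

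The few clusters beside a named row that was itself called higher are given apart. Of 63 clusters above background in all 4 arrays whose upstream named row was called higher, 6 (9.52%) were called higher and 0 lower. Of 9238 whose upstream row was not called, 68 (0.736%) were called higher. Of 306 whose upstream row was called lower, 1 was called higher and 5 (1.63%) lower. These shares were not tested against each other. By how much of the space between its bounding named rows is covered by genes of its own strand, the median log2 fold change of these clusters was between 0.07 and 0.09 in each of 6 classes. Called higher were 9 of 1702 clusters in the class with least cover, under 5%, 15 of 1119 at 50 to 75% and 4 of 226 over 95%, and the share called in either direction ran from 1.29% to 2.65%. These shares were not tested.

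The brightest clusters did not differ detectably. The 5 with the highest mean, TC2000007258.hg.1, TC0100013203.hg.1, TC1200010664.hg.1, TC0800009005.hg.1 and TC1000010368.hg.1, read between 13.2 and 13.8 in every array and had log2 fold changes from -0.03 to 0.18, each with overlapping groups except TC0100013203.hg.1. At the other end, the clusters just inside the background limit were TC0800010874.hg.1, at 4.50 and 5.13 untreated, and TC0100008133.hg.1, at 4.92 and 4.76. Just outside it were TC0800007082.hg.1, at 4.50 and 4.76, and TC1800007133.hg.1, at 4.52 and 4.76. Of the 14757 clusters, 300 had the same 4 values as at least 1 other cluster, in 112 sets of up to 14, and 0 of these were called (8 at an unadjusted p under 0.05).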

How the data were processed

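Total RNA of H929 cells, extracted with a column kit, was labelled with biotin for a whole-transcript array, per the labels' protocols. The authors deposited 1 log2 value per row and array, made with RMA in the Transcriptome Analysis Console on hg38, per the submitters' processing notes; software versions are not given in the sources used here. RMA sets all arrays to 1 distribution of intensities, so the log2 values deposited by the authors no longer hold a change shared by most rows. The table held 138745 rows, of which 2995 were controls. Gene symbols came from the platform's annotation, and positions, strands and windows before gene starts from RefSeq (GRCh38.p14).

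Groups were taken from the sample labels. All rows except controls entered 1 linear model with a treatment term, fitted in R 4.3.3 by limma 3.58.1 and moderated with its default and its trended robust prior, with Benjamini-Hochberg adjustment over 135750 rows. The fitting code was tested on simulated data. A fold for a cluster not above background in either array of 1 group is a bound, with the background of each array, or the cluster's own value where higher, in its place. Number of arrays limits the precision, with 2 per group and 2 residual degrees of freedom. Members, lists and tests were chosen with earlier results of these data known. Named clusters are those called with the default prior, the 8 highest and 8 lowest with non-overlapping groups among trended calls, the 5 brightest, 2 on either side of the background limit, and the members of the 4 highest and 4 lowest stretches; neighbours of these at UAP1, CUL1, DUSP5 and CYTIP were added after their values were seen. The main fit has no block, because the labels do not say that the replicate number marks a batch. Deviations from the group means of arrays with the same number correlated with an r of 0.04 across the unnamed clusters. Such a correlation across rows cannot show whether arrays were paired. Alternatives covered the prior, a block, the rows tested, scaling, the background, the neighbour distance and leaving out arrays.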

Additional observations from a re-analysis of the deposited data

How the results depend on the processing

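The default-prior count of 10 clusters was 314 with the trended prior, 477 when only rows above background were tested, 37 after centring on ribosomal protein genes, 56 after centring on negative controls, 5 with the 99th percentile as background, 4 with clusters chosen by their mean and 1 among clusters above background in all 4 arrays, and 0 to 0 when any 1 array was left out. With the replicate number as a block it was 15. The trended-prior count of 314 was 712 with the replicate block, 866 when only rows above background were tested, 207 among clusters above background in all 4 arrays and 120 to 235 with an array left out. The samples share only a replicate number, so the block is an alternative and no evidence of pairing. The median of 0.071 over clusters above background in all 4 arrays was 0.124 after a second quantile normalization. It was 0.094 after centring on ribosomal protein genes and -0.024 after centring on negative controls. By construction each centring shifts every log2 fold change by the same amount, upward with the ribosomal protein genes and downward with the negative controls. The median was 0.051 with the background of the untreated arrays, and 0.057 to 0.087 with an array left out.

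The correlation of neighbours at most 3 numbers apart was 0.28, and it was 0.38 with the 99th percentile background, 0.39 at a difference of 1, 0.19 at up to 10, and 0.22 to 0.27 with an array left out. The 47 stretches became 16 with the 99th percentile background, 28 with clusters chosen by their mean, 14 among clusters above background in all 4 arrays, 9 with a minimum change of 1, 209 with no minimum, and 49 to 78 with an array left out, where only 1 pair has to show the direction. The 31 clusters called higher behind a bright gene were 55 with the replicate block, 61 when only rows above background were tested, 18 with the 99th percentile background and 20 to 24 with an array left out. The range of chromosome medians was 0.14 in replicate 2, and the correlation with the nearest named row was 0.070 in clusters above background in all 4 arrays. The cause of these shifts was not tested.

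All 31 named clusters called with the trended prior kept the call with the block and under the 3 scalings, and 20 to 26 kept it with an array left out, with 0 reversals. Reversals occurred only in bright clusters whose differences were near 0. TC2000007258.hg.1 differed by -0.020 after centring on negative controls and by -0.0094 to 0.159 with an array left out. TC1200010664.hg.1 differed by -0.046 after that centring and by -0.038 to 0.135 with an array left out. TC0800009005.hg.1 differed by 0.0025 after a second quantile normalization and by -0.083 to 0.024 with an array left out, and TC1000010368.hg.1 by -0.084 to 0.018. Clusters near background have only bounds in the dim group.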

Other observations

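Unnamed transcript clusters that were above background in neither group were not described above. Of these 83344 clusters, 116 were called with limma's trended prior, 77 higher and 39 lower, and 0 with the default prior. That is 0.139% of them, against 1.17% of all rows, of which 0.248% were called higher and 0.922% lower. At an unadjusted p under 0.05 with the default prior there were 5680 of them (6.82%), against 9.42% of all rows. Their values lie where negative controls also lie, so no level is given for them.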
